A study of Mustela putorius furo and Mus musculus with 4 samples.

Results

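Among single cells of the embryonic ferret cortex, 702 were chosen because they carried transcripts of a small set of genes led by *RORB* and *PENK*. They are called RORB PENK cells here. A cell was taken when it had at least 750 detected genes, a transcript of at least 3 of the 6 genes *RORB*, *PENK*, *INHBA*, *IGFBP3*, *FBN2* and *LYPD6*, none of *EOMES*, *LHX6* or *ADARB2*, and fewer than 3 of *S100A10*, *EPHA6*, *SLN*, *CALB2*, *COL12A1* and *RERG* detected. The 702 cells are 3.02% (95% interval 2.80% to 3.25%) of the 23241 ferret cells with at least 750 genes. The whole series holds 41602 cells, of which 23482 are ferret cells and 18120 are mouse cells of the E18 cortex. The ferret cells came from the cortex of both hemispheres of 1 embryo at embryonic day 39 (E39). They were dissociated with papain with no sort named in the methods, and were sequenced with the 10x Genomics droplet platform as 2 labeled samples. All groups compared below are cells of this same embryo. The mouse cells, 1 wild type and 1 Smo CKO library, enter no comparison.

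*RORB* encodes a nuclear receptor that is known as a marker of layer 4 neurons in the sensory cortex of rodents and primates. *PENK* encodes proenkephalin, the precursor of the enkephalin opioid peptides, *INHBA* a subunit of the secreted ligand activin A, and *IGFBP3* a secreted protein that binds insulin-like growth factors. *FBN2* encodes fibrillin-2, a component of extracellular microfibrils, and *LYPD6* a membrane-anchored protein of the LY6 family, members of which modulate nicotinic acetylcholine receptors. Excitatory cortical neurons are born from radial glia (RG) cells and intermediate progenitors, migrate through the cortical wall and settle in layers, where they acquire the receptors, channels, guidance molecules and adhesion molecules of their class. Position in the cortex was not measured here, so no layer can be read from these data.

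The ferret table gives counts of unique molecular identifiers (UMIs), each of which marks 1 captured transcript. Its barcodes end in 1 of 2 suffixes, here called barcode set 1 and barcode set 2, and no label says which of the samples each belongs to. Set 1 held 10190 cells with 30574227 UMIs and set 2 held 13292 cells with 56361053 UMIs, with medians of 2555 and 3514 UMIs per cell. Only 38 barcodes occurred in both sets, and in no such pair were both cells RORB PENK cells. With 1 embryo there was no biological replicate, so no p-value is given. Levels are UMIs of a gene summed over the cells of a group, per 1000000 UMIs of that group (CPM). Intervals are exact 95% intervals and cover counting error only. Most levels are given in both barcode sets, whose spread may be technical. Where 1 value stands for a group and no set is named, the sets were pooled.

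The RORB PENK cells were unevenly divided between the sets. Set 1 contributed 441 of 10187 cells (4.33%, 3.94% to 4.74%) and set 2 contributed 261 of 13054 cells (2.00%, 1.77% to 2.25%). Among excitatory neurons and RORB PENK cells together they made up 6.49% in set 1 and 3.31% in set 2. Set 1 therefore gave the larger share although its cells were shallower. When each cell with at least 2000 UMIs was thinned to that depth, 2.26% (1.93% to 2.62%) of the cells of set 1 and 0.590% (0.459% to 0.748%) of those of set 2 still met the rule, against 5.83% and 2.21% of the same cells before thinning. RORB PENK cells were deep cells, with a median of 5077.5 UMIs against 3159 in the other excitatory neurons, a property that a rule based on detection favours.

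The 6 genes that chose the cells are described without a test. *RORB* was at 478 CPM in set 1 and 618 CPM in set 2 of the RORB PENK cells, against 93.6 and 122 CPM in the other excitatory neurons. *PENK* was at 423 and 228 CPM, against 69.0 and 8.71 CPM. The *PENK* level of the other excitatory neurons thus differed far more between the sets than the *RORB* level did. *INHBA* was at 196 and 156 CPM against 30.3 and 15.3, and *IGFBP3* at 162 and 81.0 CPM against 18.7 and 10.4. *FBN2* was at 123 and 163 CPM against 21.3 and 10.6, and *LYPD6* at 88.5 and 90.0 CPM against 5.98 and 2.65. *PENK* and *IGFBP3* were higher in the RORB PENK cells of set 1, and *FBN2* and *RORB* in those of set 2.

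Transcripts set free from broken cells can give a droplet UMIs of genes that its cell does not express, so the same genes were read in 962 cells with RG markers. There *PENK* was at 1.55 and 4.75 CPM in sets 1 and 2, *INHBA* at 3.09 and 3.29 CPM, and *IGFBP3* at 0 (0 of 371 cells, where a limit of 3 counts is 0.809% of cells with a UMI) and 3.65 CPM. The *PENK* level of the other excitatory neurons of set 1 was therefore well above the level in RG marker cells of the same set. *RORB* was at 36.3 and 36.5 CPM in the RG marker cells. *FBN2* and *LYPD6* were not neuron-specific: RG marker cells had *FBN2* at 40.2 and 35.1 CPM and *LYPD6* at 16.2 and 23.0 CPM, above the other excitatory neurons in both sets. By cells, *PENK* was detected in 66.4% of the RORB PENK cells and in 1.56% of the RG marker cells, at median depths of 5077.5 and 3677 UMIs.

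**Figure D1:**
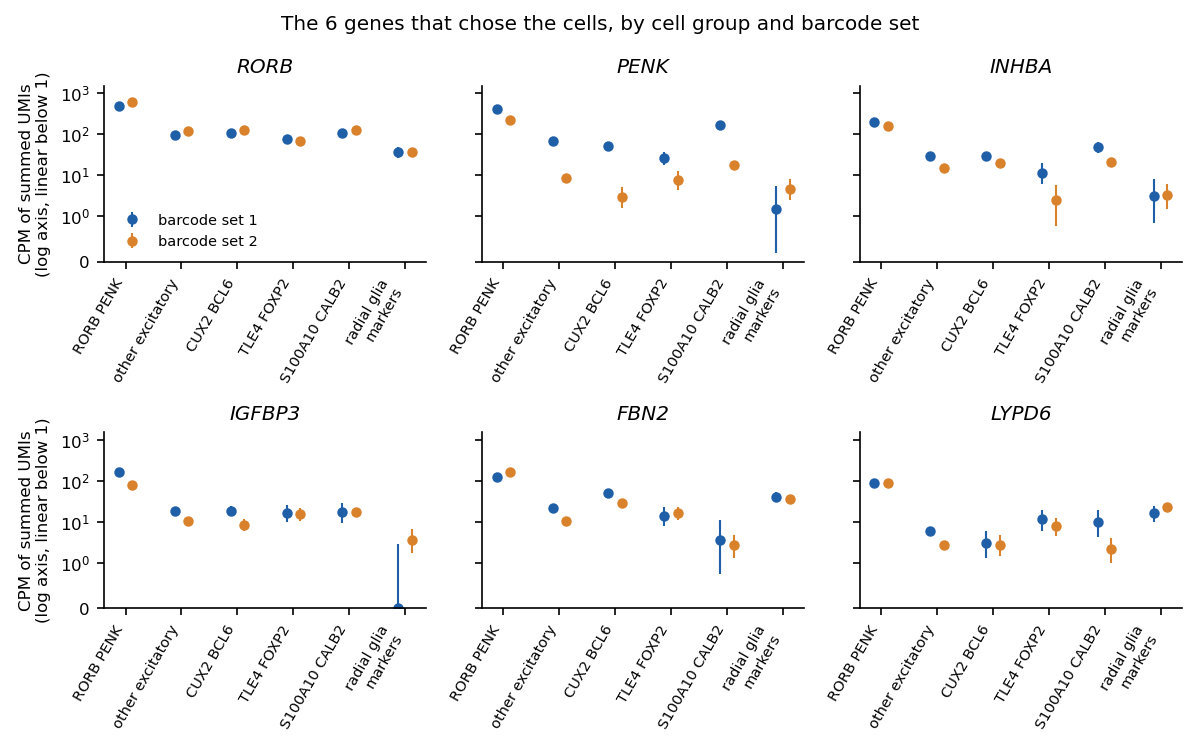
Level of each rule gene, in CPM of summed UMIs on an axis that is logarithmic above 1 and linear below, in the RORB PENK cells and 5 other groups of ferret cells, with barcode sets 1 (blue) and 2 (orange) apart and exact 95% Poisson intervals. The RORB PENK cells are highest for all 6 genes because these genes chose them, *PENK* differs most between the sets outside the RORB PENK cells, and *FBN2* and *LYPD6* also appear in cells with RG markers.

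No single gene was shared by all RORB PENK cells. *RORB* was detected in 86.9%, *PENK* in 66.4%, *INHBA* in 62.0%, *FBN2* in 47.3%, *IGFBP3* in 46.6% and *LYPD6* in 34.8% of them. In the RG marker cells these shares were 11.6%, 1.56%, 1.25%, 12.7%, 0.936% and 7.69%. Exactly 3 of the 6 genes were detected in 464 cells, 4 in 175, 5 in 56 and all 6 in 7. Of the 42 combinations that the rule allows, 41 occurred. The most frequent was *RORB* with *PENK* and *INHBA* (96 cells, 13.7%), followed by *RORB* with *PENK* and *FBN2* (46 cells) and *RORB* with *INHBA* and *FBN2* (44 cells). Before the exclusions 829 cells had at least 3 of the genes. *EOMES*, *LHX6* or *ADARB2* removed 81 of them, mostly *ADARB2*, which was present in 58, and the *S100A10* list removed a further 46.

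How often the 6 genes occurred together is given for all 12372 excitatory neurons with at least 2000 UMIs, with each cell brought to 2000 UMIs by calculation. The RORB PENK cells, which had to carry 3 of these genes, are among them and add to each ratio, so the values are a description and support nothing about the choice. For all 30 ordered pairs of the 6 genes, a gene was found more often in cells with the other gene than in cells without it. *INHBA* was found in 20.2% of the cells with *PENK* and 4.24% of those without it, and *LYPD6* in 6.94% and 1.17%. *IGFBP3* was found in 12.6% of the cells with *PENK* and 3.08% of those without. *RORB*, the most widespread of the 6, was the least selective, at 33.1% of the cells with *PENK* and 15.5% of those without. The ratio of the shares ran from 1.93 for *RORB* in cells with and without *INHBA* to 5.92 for *LYPD6* in cells with and without *PENK*. Cells of both sets were pooled here, and a difference between the sets adds to such ratios.

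The cells were checked against marker genes of excitatory neurons and of other classes. At least 2 of 5 excitatory genes, *NEUROD2*, *NEUROD6*, *TBR1* and *SLC17A7* among them, were detected in 98.6% of the RORB PENK cells. The transcription factor *MEF2C* was at 2541 and 1998 CPM against 1307 and 958 CPM in the other excitatory neurons, with set 1 before set 2 in each pair of values here and below, and was detected in 99.6% of the RORB PENK cells. The RORB PENK cells thus carried identity genes of cortical excitatory neurons. *TBR1* and *SLC17A7*, known from deep layer neurons and from mature glutamatergic neurons, were at low levels, *TBR1* at 19.1 and 23.6 CPM and *SLC17A7* at 21.0 and 33.7 CPM. Of 11 excitatory identity genes in the comparison with the other excitatory neurons below, only *MEF2C* was called higher. None was called lower.

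Markers of other cell types were low in the RORB PENK cells. The interneuron genes *GAD1*, *GAD2* and *DLX2* were at or under 1.96 CPM in each set. The summed interneuron list was at 45.2 CPM against 57.7 in the other excitatory neurons, the microglia list at 19.6 against 22.9 and the oligodendrocyte lineage list at 16.0 against 31.9. The endothelial and mural list was at 46.3 against 31.1 CPM in both sets together. In set 1 *CLDN5* was at 28.8 and *PECAM1* at 21.0 CPM, while in set 2 both were found in 0 of 261 cells, where the same limit is 1.15%. A UMI of any of *GAD1*, *GAD2*, *DLX2*, *DLX5*, *AIF1*, *C1QB*, *CLDN5* or *COL1A1* occurred in 28 of the 702 cells. *FABP7*, an abundant RG gene, was at 5056 and 3890.1 CPM against 6702 and 4415 CPM in the other excitatory neurons and at 20507 and 15505 CPM in the RG marker cells. Of 10 RG markers none was called higher, and *TNC* and *PTPRZ1* were called lower. The median share of mitochondrial UMIs was 1.63% against 1.27%. The part of these genes in the comparisons below was not tested beyond leaving out the cells that carry them.

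The 14675 excitatory neurons and RORB PENK cells were clustered by their variable genes without the 15 genes of the rule, which gave 16 clusters. Cluster 1 held 556 of the 702 RORB PENK cells (79.2%), 80.7% of those of set 1 and 76.6% of those of set 2. They made up 28.0% of its 1987 cells, of which 1428 were of set 1 and 559 of set 2. Besides *PENK*, *INHBA* and *LYPD6*, which were left out of the clustering, the genes that led cluster 1 were *GRIA4*, *SEMA3E*, *EFNA5*, *CCN2* and *CDH9*. Among the nearest neighbours of a RORB PENK cell (20 with the cell itself, which was not counted), 41.0% on average were RORB PENK cells. This was 3.21% for the other cells, and RORB PENK cells were 4.78% of all cells clustered. The cells therefore lay mostly together on genes that did not choose them, although at a resolution of 2 in place of 1 the first cluster held 57.8%. The part of barcode set and depth in this was not tested. The clustering describes the cells and is no test, since the genes of a cell are not independent of each other.

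The other RORB PENK cells were scattered. Cluster 2, led by *NDUFB4* and *CRABP1*, held 29, all of set 1, and cluster 3, led by *PRSS12*, *ZMAT4*, *THSD7A* and *CUX2*, held 21. Another 12 lay in cluster 7, led by *SLC1A3*, *VIM* and *UBE2C*, genes of RG cells and of dividing cells. Cluster 10, led by *ERBB4*, *NXPH1* and *SST*, which are known from interneurons, held 9. Cluster 11, led by *APOA1*, *FN1* and *CLDN5*, held 6, all of set 1, and cluster 14, with the complement genes *C1QC* and *C1QA* of microglia among its leading genes, held 2. Clusters 4, 5, 6, 8 and 9 held 9 to 17 cells each, clusters 12, 13 and 15 held 1 to 3 and cluster 16 held none. *RORB* itself was not confined to cluster 1. It was detected in 74.95% of the cells of cluster 6, led by *CDH8* and *CNTNAP2*, and in 66.8% of cluster 4, led by *RSPO3*, *RELN* and *FEZF2*, against 51.0% in cluster 1. *PENK* was detected in 42.2% of cluster 1 but in 0.380% of cluster 6 and 2.41% of cluster 4. *RORB* was thus detected in many cells of several clusters. These shares count the RORB PENK cells, which were 28.0% of cluster 1, 2.28% of cluster 6 and 2.92% of cluster 4. The rule chose those cells by these genes, so the *PENK* difference between clusters is partly built in and is a description only.

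**Figure D2:**
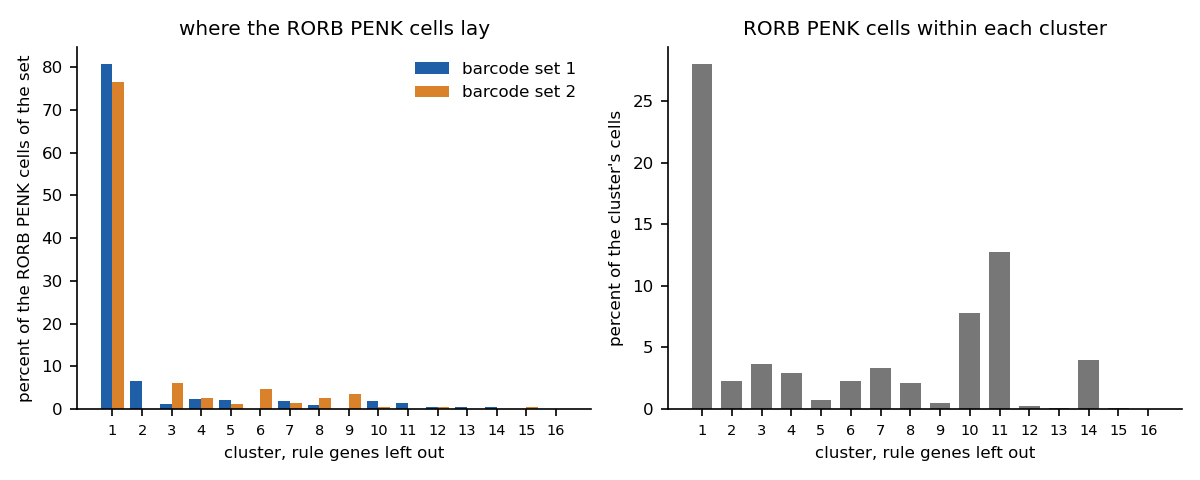
Left, percent of the RORB PENK cells of barcode sets 1 (blue) and 2 (orange) in each of 16 clusters made without the rule genes. Right, percent of each cluster's cells that are RORB PENK cells, 28.0% in cluster 1 and 12.8% in cluster 11, which has 47 cells and is led by *APOA1*, *FN1* and *CLDN5*.

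The RORB PENK cells were next compared with the 13973 other excitatory neurons, which also lacked *EOMES*, *LHX6* and *ADARB2* and had at least 2 excitatory genes. These other neurons include neurons with genes of the *S100A10* list and all cells of cluster 1 that were not RORB PENK cells. Cluster 1 held 1428 cells of set 1, of which 356 were RORB PENK cells, and 559 of set 2, of which 200 were. The comparison is thus not with a separate class, and the part of these cells in the folds of each set was not tested. A gene was called when its level, with 10 CPM added, differed at least 1.5-fold in the same direction in each barcode set, among genes with at least 50 UMIs. Of 14206 genes, 182 were called higher (1.28%) and 188 lower (1.32%), and without the genes of the rule 176 and 188. These counts were nearly equal only with 10 CPM added, since with 1 CPM added 360 genes were higher and 746 lower. The median log2 ratio over all genes was -0.05. Counts for the gene lists in this comparison are to be read beside the shares of 1.28% and 1.32%. With 10 CPM added, genes at very low levels in both groups cannot be called but count among the 14206. The shares among well expressed genes, as many listed genes are, may therefore be larger and were not computed. For each gene below, the level in the RORB PENK cells stands before the level in the comparison cells. Folds are ratios of CPM in set 1 and in set 2, where given with their counting interval, and folds under 1 are lower in the RORB PENK cells.

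**Figure D3:**
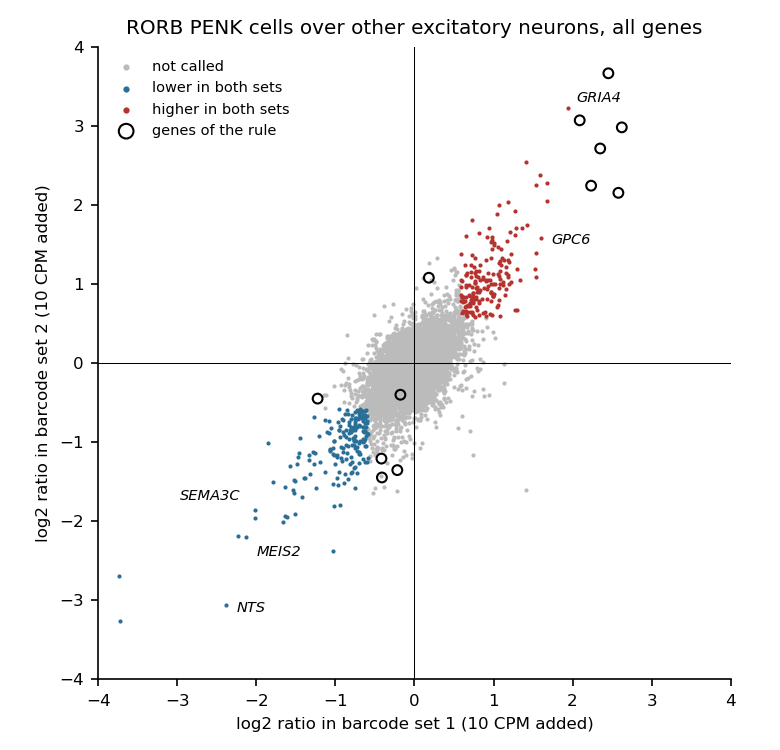
Each point is 1 gene, placed by its log2 ratio (10 CPM added) of RORB PENK cells over other excitatory neurons in barcode set 1 (x axis) and set 2 (y axis), with genes called higher in red, lower in blue and the genes of the rule ringed. *GRIA4* and *GPC6* are among the genes farthest up in both sets, and *MEIS2*, *SEMA3C* and *NTS* among those farthest down, where 2 genes that the table lists without a symbol lie lowest.

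Among called genes with a symbol that were detected in at least 10% of the cells of the higher group, the leading genes were ordered by the smaller of their differences in the 2 sets, and the first was *GRIA4*, a subunit of AMPA type glutamate receptors. It was at 159 and 238 CPM against 34.1 and 16.5 CPM in the other excitatory neurons, 4.67-fold (4.07 to 5.34) in set 1 and 14.4-fold (12.7 to 16.4) in set 2. The levels of the RORB PENK cells lay above those of the other neurons in each set. *CCN2*, a matrix-associated protein known from subplate neurons, was at 71.4 and 52.9 CPM against 15.4 and 2.96 CPM, 4.64-fold (3.78 to 5.68) in set 1 and 17.8-fold (13.3 to 23.8) in set 2. *NR3C2*, the mineralocorticoid receptor, was at 52.8 and 51.7 CPM against 9.68 and 4.86 CPM, folds of 5.46 and 10.6. For *GRIA4*, *CCN2* and *NR3C2* the fold was larger in set 2, where the other excitatory neurons had the lower level.

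*GPC6*, a heparan sulfate glypican, was at 309 and 379.6 CPM against 94.8 and 119.8 CPM, 3.26-fold (2.97 to 3.57) in set 1 and 3.17-fold (2.92 to 3.44) in set 2, and its fold differed least between the sets among the 12 leading genes that were higher. *CSGALNACT1*, an enzyme of chondroitin sulfate synthesis, was at 52.8 and 74.8 CPM against 10.9 and 6.33 CPM, folds of 4.82 and 11.8. *ANOS1*, the secreted protein anosmin-1, was at 147 and 98.4 CPM against 54.9 and 25.1 CPM, folds of 2.67 and 3.92. *GPC6* and *ANOS1* were also present in the RG marker cells, at 229 and 372 CPM and at 49.5 and 47.1 CPM. *GPC6* was not particular to the RORB PENK cells among neurons, since it was among the leading genes of cluster 6. It was at 505 CPM there, in 74.2% of the cells. The growth factor gene *VEGFC* was at 66.5 and 64.7 CPM against 16.3 and 18.4 CPM, folds of 4.07 and 3.51, close to each other in the 2 sets. *ACTN2*, which cross-links actin, was at 58.2 and 43.9 CPM against 15.5 and 5.98 CPM, folds of 3.75 and 7.33. *LYPD6B*, a paralog of the rule gene *LYPD6*, was at 29.8 and 42.2 CPM against 6.45 and 3.80 CPM, folds of 4.62 and 11.1. How reads shared by near-identical genes were counted is not given in the sources used here, so *LYPD6B* is uncertain.

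**Figure D4:**
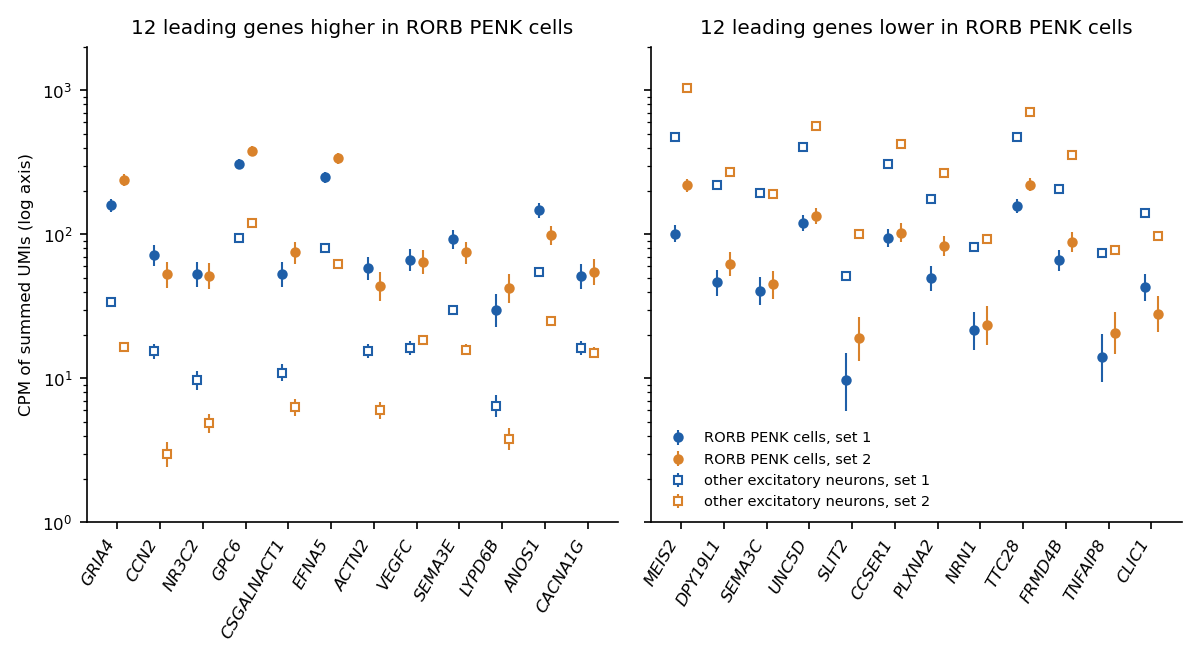
CPM of summed UMIs (log axis) of the 12 leading genes higher (left) and lower (right) in the RORB PENK cells (filled circles) than in the other excitatory neurons (open squares), in barcode sets 1 (blue) and 2 (orange), with exact 95% Poisson intervals. For each of the 24 genes both RORB PENK values lie on the same side of both values of the other excitatory neurons.

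The genes for guidance molecules went both ways. Of 37 axon guidance genes, 3 were called higher and 10 lower, against 1.28% and 1.32% of all genes, and the median log2 ratio of the list was -0.31. *EFNA5*, an ephrin ligand, was at 250.3 and 336 CPM against 79.8 and 62.5 CPM, 3.14-fold (2.83 to 3.47) in set 1 and 5.38-fold (4.91 to 5.89) in set 2. *EPHA7*, an ephrin receptor, was at 182 and 169 CPM against 66.2 and 76.9 CPM, folds of 2.75 and 2.20. *SEMA3E*, a secreted semaphorin, was at 92.4 and 74.8 CPM against 29.8 and 15.8 CPM, 3.10-fold (2.61 to 3.66) in set 1 and 4.72-fold (3.88 to 5.71) in set 2. Against these stood *SEMA3C*, another secreted semaphorin, at 40.6 and 45.0 CPM against 194 and 189.8 CPM, 0.209-fold (0.166 to 0.259) in set 1 and 0.237-fold (0.188 to 0.295) in set 2. The 2 semaphorins therefore went opposite ways. The semaphorin receptor gene *PLXNA2* was at 49.4 and 83.2 CPM against 175 and 266 CPM, folds of 0.282 and 0.312, and the semaphorin coreceptor gene *NRP1* at 9.78 and 5.06 CPM against 30.5 and 68.1 CPM, folds of 0.320 and 0.0743. *UNC5D*, a netrin receptor known from neurons in the subventricular zone, was at 121 and 134 CPM against 404 and 569 CPM, 0.299-fold (0.262 to 0.340) in set 1 and 0.235-fold (0.206 to 0.267) in set 2. *SLIT2* was at 9.78 and 19.1 CPM against 51.6 and 101 CPM, folds of 0.189 and 0.189, and the gene of its receptor *ROBO1* at 305 and 449 CPM against 509 and 1199 CPM, folds of 0.599 and 0.374. *DCC*, *SEMA3A*, *SEMA6D* and *EPHB1* were also called lower.

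Genes of migrating and newborn neurons were lower or uncalled. Of 14 tested, none was higher and 5 were lower, namely *UNC5D*, *NRP1*, *SEMA3C*, *PLXNA2* and *RND2*, of which all but *RND2* are also guidance genes counted above. The median log2 ratio of the list was -0.43. *DCX*, the microtubule protein that names migrating neurons, did not pass. The proneural gene *NEUROG2* was at 10.8 and 10.1 CPM against 39.3 and 50.4 CPM, folds of 0.273 and 0.201, and *INSM1*, of delaminating progenitors, at 24.0 and 14.6 CPM against 75.8 and 45.4 CPM, folds of 0.316 and 0.322. These were the intermediate progenitor markers called lower, 2 of 8, and *EOMES* was barred by the rule. Progenitor genes that the rule did not use were thus lower where they passed. In the other direction, 4 of 21 neuron maturation genes were higher and none was lower, with a median log2 ratio of 0.36. *SYT1*, the calcium sensor of synaptic vesicles, was at 664 and 899.8 CPM against 417 and 567 CPM, folds of 1.59 and 1.59. *SYT4* was at 479 and 800.3 CPM against 278 and 386 CPM, and the neurofilament gene *NEFM* at 226 and 381 CPM against 108 and 203 CPM. These genes serve transmitter release and the axon. *MEF2C* was the other gene of the list that passed, with folds of 1.94 and 2.09. The synaptic gene *SNAP25* was at 55.7 and 60.7 CPM against 68.2 and 93.1 CPM and did not pass.

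On the lower side the first gene by the same order and the same limit of 10% of cells was *MEIS2*, a homeodomain transcription factor, at 101 and 219 CPM against 476 and 1045 CPM, 0.212-fold (0.184 to 0.244) in set 1 and 0.210-fold (0.189 to 0.232) in set 2. *DPY19L1*, known from the radial migration of glutamatergic neurons, was at 46.4 and 62.4 CPM against 219 and 272 CPM, folds of 0.212 and 0.230. *CCSER1* was at 93.9 and 103 CPM against 309 and 425 CPM and *TTC28* at 157 and 222 CPM against 472 and 712 CPM. *MEIS2* and *TTC28* were not low in all other cells, since the RG marker cells had *MEIS2* at 802 and 1086 CPM and *TTC28* at 285 and 399.8 CPM, whereas *CCSER1* was at 72.7 and 89.8 CPM there. *FRMD4B* was at 66.0 and 88.3 CPM against 208 and 358 CPM, and *NRN1*, encoding the neurite outgrowth protein neuritin, at 21.5 and 23.6 CPM against 81.8 and 92.8 CPM. *TNFAIP8* was at 14.2 and 20.8 CPM against 73.8 and 77.7 CPM, and *CLIC1*, an intracellular chloride channel protein, at 43.0 and 28.1 CPM against 141 and 96.8 CPM. The neuropeptide gene *NTS*, encoding neurotensin, fell short of that limit but differed more than *MEIS2*, at 1.96 and 2.25 CPM against 52.2 and 92.6 CPM, folds of 0.0374 and 0.0243.

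Among receptors, 3 of 20 glutamate receptor genes were higher and 1 was lower. Beside *GRIA4* these were the metabotropic receptor genes *GRM5*, at 433 and 569 CPM against 171 and 353 CPM, and *GRM7*, at 411 and 579 CPM against 217 and 365 CPM. The kainate receptor gene *GRIK1* was lower, at 9.29 and 14.6 CPM against 47.4 and 50.6 CPM, folds of 0.196 and 0.289. The other AMPA receptor genes did not pass, with *GRIA2* at 530.4 and 635 CPM against 476 and 730.4 CPM. *GRIA4* thus stood apart from *GRIA1*, *GRIA2* and *GRIA3*. None of 9 GABA receptor genes passed, where 2.56% of all genes outside the rule did, and *GABRB1* had folds of 1.31 and 2.92. Of 9 serotonin, adrenergic and dopamine receptor genes, *HTR2C* was higher, at 9.78 and 20.2 CPM against 1.75 and 3.05 CPM, a low level.

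Of 30 potassium and calcium channel genes, 5 were higher and 3 lower. *CACNA1G*, a T-type calcium channel, was at 51.3 and 55.1 CPM against 16.2 and 15.04 CPM, 3.16-fold (2.51 to 3.96) in set 1 and 3.66-fold (2.92 to 4.55) in set 2. *KCNH1*, an ether-a-go-go type potassium channel, was at 37.6 and 88.3 CPM against 10.9 and 13.8 CPM, folds of 3.44 and 6.38. Channels of different kinds were thus among the higher genes. *KCNJ3*, a G protein-gated potassium channel, was at 71.9 and 90.0 CPM against 37.8 and 41.7 CPM, and *KCNK9*, a leak channel, at 36.7 and 41.1 CPM against 20.9 and 18.1 CPM. The channel subunit gene *KCNIP4* was higher too, and *KCNQ3*, *KCNH8* and *KCNA1* were lower. Of 38 cadherin and adhesion genes, 6 were higher and 3 lower. *CDH9* was at 64.5 and 82.7 CPM against 23.2 and 21.6 CPM, folds of 2.78 and 3.82, and *PCDH7* at 447 and 434 CPM against 207 and 197 CPM, folds of 2.16 and 2.20. *NRXN3*, a presynaptic adhesion gene, was at 129 and 186 CPM against 54.1 and 68.3 CPM, folds of 2.38 and 2.73. *CDH12*, *CNTNAP4* and *TENM1* were also higher, and *CNTN4*, *CNTN5* and *TENM4* lower.

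Partners of the rule genes in their own pathways were read next. Of all genes outside the rule 2.56% were called either way, so few calls in lists this short are no result about a pathway. For *INHBA*, 1 of 21 activin and TGF-beta family genes was higher and 1 lower. *SMAD3*, which carries the activin signal to the nucleus, was at 20.5 and 21.4 CPM against 8.36 and 2.13 CPM, folds of 2.46 and 10.0, and the receptor gene *TGFBR1* at 12.2 and 19.7 CPM against 28.8 and 38.7 CPM, folds of 0.425 and 0.509. Neither gene encodes a ligand. The activin receptor gene *ACVR2A* was at 79.7 and 79.9 CPM against 83.5 and 93.6 CPM and did not pass. For *IGFBP3*, none of 11 genes of the insulin-like growth factor axis was higher, and *IGFBPL1* was lower, at 46.4 and 68.6 CPM against 153 and 209 CPM. *IGF1R*, the receptor, was at 165 and 223 CPM against 182 and 257 CPM and did not pass. For *FBN2*, none of 15 microfibril and matrix genes was higher, and *TNC* was lower. For *LYPD6*, the nicotinic receptor and LY6 list had *LYPD6B* higher and *LYPD1* lower among 8 genes.

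For *PENK*, 3 of 16 opioid and neuropeptide genes were higher. *SCG2*, a secretogranin of dense core vesicles, was at 41.6 and 106 CPM against 14.6 and 19.0 CPM, 2.84-fold (2.20 to 3.63) in set 1 and 5.59-fold (4.73 to 6.58) in set 2. *CHGB* was at 41.6 and 90.0 CPM against 17.3 and 23.1 CPM and *CHGA* at 69.9 and 88.9 CPM against 39.8 and 49.5 CPM. These 3 granins share a place in dense core vesicles, where neuropeptides are stored. *NTS*, above, was the only gene of the list that was lower. *PCSK2* and *CPE*, which process peptide precursors, did not pass, *PCSK2* at 47.4 and 50.6 CPM against 56.0 and 55.1 CPM and *CPE* at 189 and 186 CPM against 225 and 282 CPM. For *RORB*, 2 of 15 retinoid and nuclear receptor genes were higher. *RORA*, its paralog, was at 148 and 156 CPM against 75.8 and 75.9 CPM, and *RARB*, a retinoic acid receptor, at 22.5 and 34.9 CPM against 7.30 and 8.20 CPM. The retinoid binding gene *CRABP1* was lower, at 37.2 and 24.7 CPM against 85.3 and 59.0 CPM. Of 17 activity regulated genes, *SCG2* was higher and *JUN* lower.

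Lists of genes named for cortical layers held calls in both directions. Of 9 tested layer 4 genes, *RORA* was higher, and *THSD7A*, *LMO4* and *UNC5D* were lower. Of 12 upper layer genes, *POU3F1*, *BCL6* and *MDGA1* were higher and *LMO4* and *UNC5D* lower. *POU3F1*, a POU domain factor, was at 125 and 84.9 CPM against 55.4 and 48.1 CPM, folds of 2.25 and 1.77, and the repressor gene *BCL6* at 203 and 169 CPM against 119 and 65.9 CPM, folds of 1.70 and 2.56. Of 10 layer 5 genes none was higher, and *FEZF2*, a determinant of subcerebral projection neurons, was lower, at 11.2 and 29.8 CPM against 23.4 and 82.7 CPM, as was *LMO4*. Of 9 layer 6 genes *FOXP1* was higher, at 270.3 and 287 CPM against 132 and 185 CPM, and *TLE4* lower, at 71.4 and 95.6 CPM against 218 and 246 CPM. Among 9 subplate genes only *CCN2* passed. The area genes *EFNA5* and *EPHA7* were higher and *MEIS2*, *LMO4* and *TSHZ3* lower among 18, and *NR2F1*, at 169 and 199 CPM against 115 and 86.7 CPM, did not pass in set 1.

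The rule draws its line at 3 of the 6 genes. Cells just inside it, with 3 genes and at least 2 excitatory genes (458 cells, median 4881 UMIs), were set beside cells just outside, with 2 genes (965 cells, median 4614 UMIs). *GRIA4* was at 162 CPM inside and 72.5 CPM outside, and *CCN2* at 62.4 and 29.5 CPM. *MEIS2* was at 174 and 316 CPM, and *SEMA3C* at 46.4 and 65.6 CPM. In these genes the cells with 2 rule genes lay between those with 1 and those with 3. The genes shown were picked for their difference between RORB PENK cells and other excitatory neurons. Such steps are therefore partly built in and are a description only. Over cells with 0, 1, 2, 3, 4 and 5 or 6 of the genes, *GRIA4* was at 13.1, 26.3, 72.5, 162, 221 and 349 CPM, and *UNC5D* at 755, 303, 170.4, 140.4, 94.0 and 136 CPM. *EFNA5* went from 35.1 to 356 CPM and *GPC6* from 61.8 to 389.9 CPM at 4 genes and 336 CPM at 5 or 6. The median depth of these cells went from 2707 to 6488.5 UMIs over the same steps, and both sets were pooled.

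**Figure D5:**
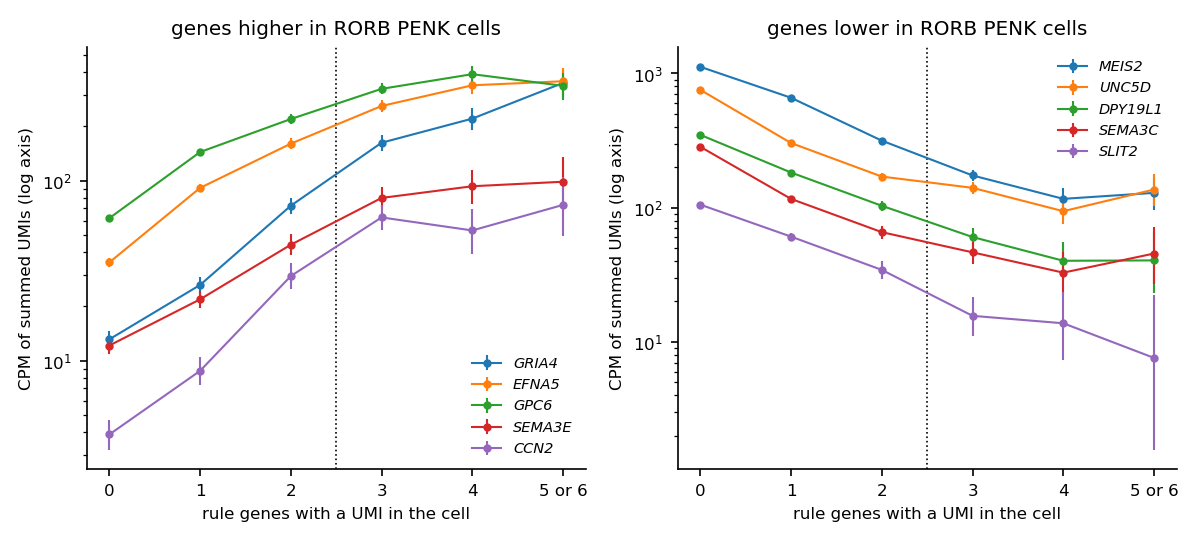
CPM of summed UMIs (log axis) of 5 genes higher (left) and 5 genes lower (right) in the RORB PENK cells, in excitatory neurons with 0 to 6 of the rule genes, with exact 95% Poisson intervals and the rule's line dotted. *GRIA4* goes from 13.1 CPM in the 8902 cells without a rule gene to 349 CPM in the 62 cells with 5 or 6, and *MEIS2* from 1121 to 129 CPM.

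The RORB PENK cells were then set beside 1668 CUX2 BCL6 cells, which had a UMI of both of these upper layer genes and a median of 3771.5 UMIs. Of 10761 genes, 233 were higher (2.17%) and 166 lower (1.54%). *CUX2* and *BCL6* chose the comparison cells and are no result. *NWD2* was at 96.8 and 130.5 CPM against 14.99 and 19.1 CPM, and *EFNA5* at 250.3 and 336 CPM against 67.8 and 40.2 CPM, in RORB PENK and CUX2 *BCL6* cells. *NWD2* was also among the leading genes of cluster 4, at 259 CPM there. *SEMA3E* was at 92.4 and 74.8 CPM against 21.4 and 14.2 CPM, folds of 4.33 and 5.27. *GRIA4* was at 159 and 238 CPM against 63.7 and 40.0 CPM, folds of 2.49 and 5.95. Of 18 glutamate receptor genes 6 were higher (*GRIA3*, *GRIA4*, *GRIN1*, *GRIK2*, *GRM5* and *GRM7*), and of 36 adhesion genes 10 were higher, *CDH6*, *CDH8*, *CDH9* and *PCDH10* among them. *GRIK1* was the glutamate receptor gene that was lower, and *CDH2*, *CDH4* and *TENM4* were the adhesion genes that were lower. The layer 6 genes *FOXP1*, *FOXP2* and *ZFPM2* were higher as well.

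Genes of the lower side against the CUX2 BCL6 cells were partly those of migrating neurons. *SEMA3C* was at 40.6 and 45.0 CPM against 183 and 194 CPM, *PLXNA2* at 49.4 and 83.2 CPM against 204 and 334 CPM and *UNC5D* at 121 and 134 CPM against 355 and 553 CPM. *THSD7A* was at 118 and 174 CPM against 512 and 669 CPM, folds of 0.230 and 0.261, and the phosphodiesterase gene *PDE1C* at 80.2 and 136 CPM against 390.4 and 482 CPM, folds of 0.205 and 0.283. Of 12 upper layer genes, *POU3F2*, *RASGRF2* and *UNC5D* were lower beside *CUX2* and *BCL6*, and *POU3F1* was higher. Maturation genes were on the other side, with 6 of 20 higher (*CAMK2B*, *NRGN*, *NEFL*, *NEFM*, *GAP43* and *MEF2C*) and *RBFOX1* lower.

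The 773 S100A10 CALB2 cells, with at least 3 genes of the list that the rule barred, were nearer in depth, with a median of 6203 UMIs, and lay mostly in set 2 (595 cells). Of 10327 genes, 144 were higher (1.39%) and 140 lower (1.36%). *GRIA4* was at 159 and 238 CPM against 27.1 and 11.6 CPM, 5.87-fold (3.81 to 9.50) in set 1 and 20.5-fold (15.2 to 28.3) in set 2. *ANOS1* was at 147 and 98.4 CPM against 17.2 and 16.2 CPM, and *VEGFC* at 66.5 and 64.7 CPM against 6.15 and 11.8 CPM. *GRIA4*, *ANOS1* and *VEGFC* were thus higher in the RORB PENK cells than in the S100A10 CALB2 cells. The latter had to have fewer than 3 rule genes, and the part of depth in the difference was not tested. *EFNA5*, *EPHA7*, *PCDH7* and *NRXN3* were also called higher, whereas *SEMA3E*, *CDH9*, *RORA*, *GRM5*, *GRM7*, *MEF2C*, *SYT4* and *NEFM* were not called. Of 20 neuron maturation genes 3 were higher (*SYT1*, *RBFOX1* and *RBFOX3*) and none lower. The median log2 ratio of that list was -0.10, against -0.04 over all genes. Of 12 upper layer genes 5 were higher (*CUX1*, *CUX2*, *POU3F1*, *BCL6* and *MDGA1*), with *CUX2* at 178 and 228 CPM against 40.6 and 37.9 CPM. Of 25 channel genes 6 were higher, with *CACNA1G* at 51.3 and 55.1 CPM against 28.3 and 23.2 CPM. *LMO4* was at 152 and 275 CPM against 626 and 1357 CPM, folds of 0.242 and 0.203, and the complement-related protease gene *MASP1* at 1.96 and 8.44 CPM against 44.3 and 92.0 CPM. Of 11 migrating and newborn neuron genes none was higher and 2 were lower, *RND3* and *PLXNA2*. *SEMA3C* and *UNC5D* were not called here, with *UNC5D* at 121 and 134 CPM against 101 and 143 CPM. *MEIS2* was lower again, at 101 and 219 CPM against 191 and 506 CPM.

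The 746 TLE4 FOXP2 cells were a mixed group. Only 63.4% of them had 2 excitatory genes, and their endothelial and mural markers summed to 593.4 CPM against 46.3 in the RORB PENK cells. Of 10390 genes, 225 were higher (2.17%) and 1079 lower (10.4%), with the endothelial genes *CLDN5*, *PECAM1* and *RGS5* and the RG genes *SOX2*, *HES1*, *VIM* and *HOPX* among the lower. With the 473 TLE4 FOXP2 cells that had 2 excitatory genes, a choice made after the data were seen, 180 of 9559 genes were higher (1.88%) and 502 lower (5.25%). In that comparison, with both sets pooled, *GRIA4* was at 196 CPM in the RORB PENK cells against 8.68 CPM and *POU3F1* at 106 against 21.0 CPM. The layer 6 gene *ZFPM2* was at 59.4 against 829 CPM and the layer 5 genes *FEZF2* and *BCL11B* at 19.9 against 173 CPM and 21.7 against 130.1 CPM. These 3 deep layer genes were called lower, whereas the layer 6 gene *FOXP1* was called higher, at 278 against 167 CPM, and the layer 5 gene *ETV1* was not called. *NTS* was at 2.09 against 397 CPM. The endothelial gene *CLDN5* was still called lower, at 15.4 against 106 CPM.

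RORB PENK cells with and without a given rule gene were compared among themselves, as a description, and their levels are pooled over both sets. The rule ties the genes here, since a cell without *PENK* must have 3 of the other 5. With *PENK* (466 cells) and without it (236 cells), 39 of 7759 genes differed 1.5-fold in both sets (0.503%). *RELN*, encoding the secreted protein reelin, had 36 UMIs (14.6 CPM) in cells with *PENK* and 151 UMIs (111 CPM) in cells without it. Its log2 ratio was -3.40 in set 1 and -0.74 in set 2. *THSD7A* was at 90.5 and 241 CPM, *PDE1C* at 71.8 and 169 CPM and *CNTN3* at 9.33 and 38.3 CPM. *RELN* was among the leading genes of cluster 4 and *THSD7A* of cluster 3, but *RELN* was also among those of cluster 10, with the interneuron gene *SST*. *SST* was at 23.5 CPM with *PENK* and 44.9 CPM without it, and the part of interneuron transcripts in the *RELN* difference was not tested. On the other side *RORA* was at 189 CPM with *PENK* and 83.2 CPM without it, *B2M* at 94.9 and 25.8 CPM and *FOXP1* at 330.3 and 184 CPM.

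*LYPD6* and *IGFBP3* divided the cells in opposite ways for some genes. With *LYPD6* (244 cells) against without it (458 cells), 35 genes differed (0.451%). *GRIA4* was at 290.5 and 142 CPM, the potassium channel gene *KCNH1* at 101 and 38.5 CPM, *CPNE4* at 77.5 and 27.4 CPM and *HTR2C* at 26.8 and 7.78 CPM. With *IGFBP3* (327 cells) against without it (375 cells), 45 genes differed (0.58%), 41 of them lower. *KCNIP4* was at 10.8 and 55.4 CPM, *GABRB1* at 27.2 and 101 CPM, *CPNE4* at 17.0 and 69.9 CPM and *HTR2C* at 3.97 and 23.8 CPM. *RELN* went the other way, at 89.0 CPM with *IGFBP3* and 14.6 CPM without it, as did *SST*, at 49.3 and 15.5 CPM. The log2 ratio of *RELN* was 2.66 in set 1 and 0.87 in set 2. *RELN* was at 13.8 CPM with *LYPD6* and 68.8 CPM without it, log2 ratios of -2.18 and -0.91 in sets 1 and 2.

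*FBN2* and *INHBA* divided the cells less. With *FBN2* (332 cells, median 5766.5 UMIs) against without it (370 cells, median 4700.5 UMIs), 28 genes differed (0.361%), among them the adhesion gene *NCAM2* at 101 and 27.0 CPM and *TENM2* at 224 and 424 CPM. With *INHBA* (435 cells) against without it (267 cells), 16 genes differed (0.206%), among them *CCN2* at 42.5 and 95.2 CPM and the calcium channel subunit gene *CACNB2* at 99.8 and 54.4 CPM. *CCN2* was thus lower in the cells with *INHBA* than in those without it. The 92 cells without *RORB* were fewest and shallowest (median 4265.5 UMIs against 5191.5), and 214 genes differed (2.76%). The limit of 50 UMIs is on both groups together, so calls here can rest on few UMIs, such as 52 against 2 for *TSC1*. Some counting intervals of the fold include 1, such as 0.81 to 12.5 for *BCOR*. The cells without *RORB* had 80 UMIs of the apolipoprotein gene *APOA1* against 64 in the 610 cells with *RORB*, 178 against 19.0 CPM, and 4 UMIs of *RELN* against 183. For *APOA1* the log2 ratio of cells with *RORB* over those without was -2.50 in set 1 and -0.77 in set 2. *APOA1* led cluster 11, at 3559 CPM there and 3.22 CPM in the other clusters. The part of the 6 RORB PENK cells of cluster 11, all of set 1, in this difference was not tested.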

How the data were processed

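The authors deposited the ferret cells as 1 table of UMI counts per gene and cell, made with Cell Ranger and not normalized. The Cell Ranger version and the ferret genome build are not given in the sources used here. The rule genes, gene lists and comparison groups were chosen with earlier results of these data known. Python (3.11.15), pandas (2.3.3) and scipy (1.17.1) were used, with igraph (0.11.9) and leidenalg (0.10.2) for clusters. Excitatory neurons had at least 2 of 5 excitatory genes, no gene of the barred trio *EOMES*, *LHX6* and *ADARB2*, and were not RORB PENK cells. The *CUX2* *BCL6*, *TLE4* *FOXP2* and *S100A10* *CALB2* groups also lacked this trio and had fewer than 3 rule genes, and 129 cells that met more than 1 of these definitions were left out. Cells with RG markers had at least 3 of *SOX2*, *PAX6*, *HES1*, *HES5*, *SLC1A3* and *HOPX* and neither *NEUROD2* nor *NEUROD6*. UMIs were summed per group and barcode set. Ratios of log2 (CPM + 10) were called at 1.5-fold in both sets among genes with at least 50 UMIs. Leading genes were the 12 with the largest smaller difference in each direction, among those past the call and detected in at least 10% of the cells of the higher group. Up to 5 genes of each list followed, and the other genes named were chosen after their values were seen. Clopper-Pearson intervals were used for shares and Poisson or conditional binomial intervals for levels and folds. Code was tested on simulated data. The authors kept cells with 750 to 5000 genes and under 10% mitochondrial transcripts by the methods, while 241 of the 23482 deposited cells had fewer than 750 genes. No doublet caller was run. Results were recomputed without deep cells and cells of other classes. A marker gene used to choose cells is not reported here.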

Additional observations from a re-analysis of the deposited data

Results flagged for a closer look

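The mouse libraries enter no comparison above. With mouse symbols, all 15 of which are in the mouse table, 18 of 17765 mouse cells with at least 750 genes met the rule for RORB PENK cells (0.101%, exact 95% interval 0.0601% to 0.160%). This was flagged as a signal in data outside the main measurement. The mouse cells had a median of 4353 UMIs. *Rorb* was detected in 25.2% of them and *Penk* in 0.146%. They are E18 cells that were labeled with CellTrace Yellow and sorted, so they are another population, and were not compared with the ferret cells.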

How the results depend on the processing

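The share of RORB PENK cells, 3.02% of cells, was 3.29% among cells with at least 1000 genes, 1.02% when 4 rule genes were required, 1.69% when *RORB* and *PENK* were both required, 3.25% without cells that carry a UMI of another class and 1.24% at 2000 UMIs per cell. In the single barcode sets it was 2.00% and 4.33%. With 1 CPM added in place of 10, the genes called higher and lower than in the other excitatory neurons went from 176 and 188 to 360 and 746, and those called against the *CUX2* *BCL6*, *TLE4* *FOXP2* and *S100A10* *CALB2* groups from 393, 1297 and 273 to 801, 1948 and 548. With a 2-fold call these 5 counts were 45, 44, 112, 582 and 78, and the listed genes called went from 69 to 27. With 1 barcode set alone they ranged from 262 to 286 higher and from 285 to 461 lower, from 511 to 779, from 1202 to 2034 and from 456 to 597, and the listed genes from 88 to 117, since a call then needs 1 set only. Against the TLE4 FOXP2 cells the count was 804 at 2000 UMIs per cell and, in a choice made after seeing the data, 675 with 2 excitatory genes required. With the RORB PENK cells of cluster 1 only, also chosen after seeing the data, 297 genes were lower than in the other excitatory neurons. The cluster with most RORB PENK cells held 57.8% of them at a resolution of 2 and 84.9% with the rule genes kept. The cause was not tested for the other changes. All 24 leading genes kept their call and direction under all 17 alternatives run on them. The runs with 1 barcode set, 1 CPM added, at least 10 UMIs or a 2-fold call could not have changed this. The genes were chosen for the largest differences in both sets, the smallest a log2 ratio of 1.23. Groups were compared within each barcode set, although the suffixes are not tied to the numbered samples. No paired test was made, since the sets are no biological replicates. With 1 embryo, the intervals cover counting error only and say nothing of other ferrets.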
